A study of Homo sapiens with 2 samples.

Results

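The interleukin-1 (IL-1) family and the cytokine IL32 were examined in stably transfected OECM1 cells, a cell line established from a head and neck cancer. The 10 genes IL1A, IL1B, IL1RN, IL1R1, IL1R2, IL1RAP, IL18, IL33, IL36G and IL32 were read by 19 probe sets, out of 19775 genes and 41097 probe sets that carry a single gene symbol. They were chosen by gene symbol with the let-7i over empty vector ratios of these same arrays already known, so their values are a description and no test is given. One group, let-7i, carried the vector pmCherry-let7i, and its control, the empty vector group, carried the vector that the labels call pmR-mCherry. Both were grown in RPMI with 10% fetal bovine serum, and total RNA was read on 1 Affymetrix array per group. There was no replicate, so no SD between cultures and no p-value can be given, and whether a line is 1 clone or a pool is not given in the sources used here.

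IL1A and IL1B are the agonists that bind the receptor IL1R1, which then recruits the co-receptor IL1RAP to start signalling through MYD88 and NF-kB. IL1RN blocks that receptor and IL1R2 binds IL-1 without signalling. IL18, IL33 and IL36G are related ligands with receptors of their own, and those of IL33 and IL36G also need IL1RAP. IL32 is not related to the family in sequence, but is a pro-inflammatory cytokine of epithelial and immune cells. In squamous epithelium, IL1A, IL18, IL33 and IL36G are known as alarm signals held in the cell until damage. The introduced microRNA belongs to the let-7 family, which represses messenger RNAs that pair with its seed. Its mature form in RefSeq is given with the seed, bases 2 to 8, in capitals, because the seed is what all let-7 members share.
hsa-let-7i-5p: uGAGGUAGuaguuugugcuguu

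The values are MAS5 signal intensities on a linear scale. Each array's median signal, 79.5 for let-7i and 88.0 for the empty vector, served as a floor, since no detection calls were used here. Log2 ratios are let-7i over empty vector. Where 1 of the signals was under its floor, the floor took its place and the ratio is a bound, and a probe set below the floor on both arrays got no ratio. The brightest of 27 control probe sets for Bacillus genes, which these cells lack, had a signal of 47.7 on the let-7i array and 65.1 on the empty vector array. The 3'/5' signal ratio of GAPDH was 0.934 for let-7i and 0.948 for the empty vector, and that of ACTB was 1.26 for let-7i and 1.21 for the empty vector. The SD of 1 probe set's log2 ratio, taken from pairs of probe sets of the same gene, was 0.34 in the 1452 dimmest such genes and 0.25 in the next 1451. It covers differences between probe sets of the same gene, and not differences between cultures.

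IL32, IL1B and the co-receptor IL1RAP were at least 2-fold higher with let-7i, and no gene of the set was 2-fold lower. The remaining genes that could be measured, IL1A, IL1RN, IL1R1 and IL18, lay within 1.32-fold of the empty vector in their brightest probe sets. IL1R2, IL33 and IL36G were below the floor on both arrays. So 3 of the 7 genes above the floor were past 2-fold upward and 0 downward, against 1.06% upward and 1.38% downward of the 12284 genes with at least 1 signal above the floor. By probe set, 4 of 10 above the floor were at least 2-fold higher and 0 lower, against 0.982% and 1.39% of 23919. Nothing is read from these shares, because the genes were picked with the ratios known. The median log2 ratio of the 7 genes was 0.07, against -0.01 over all genes above the floor.

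**Figure D1:**
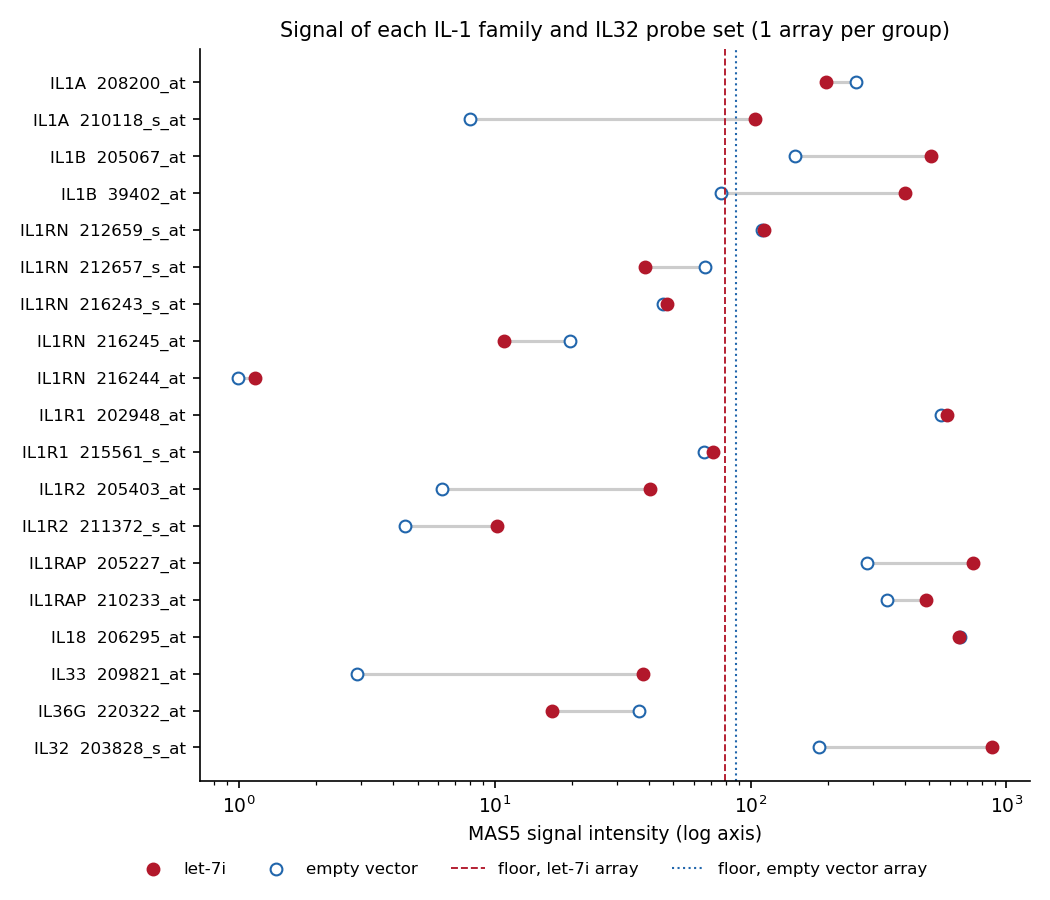
MAS5 signal intensity (x axis, logarithmic) of the 19 probe sets of the 10 genes (rows) on the let-7i array (filled red) and the empty vector array (open blue), with each array's floor as a vertical line. IL32, both IL1B probe sets and both IL1RAP probe sets lie further right with let-7i, while 9 probe sets lie left of the floor on both arrays.

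IL32 had a signal of 878 with let-7i and 185 with the empty vector. Both signals were above the floor, the empty vector one by 2.11 times, and the let-7i signal was 4.72-fold higher (log2 ratio 2.24). This placed IL32 at rank 7 from the top among the 11140 genes measured on both arrays. The gene has 1 probe set, of a type that can match several transcripts, so no second reading bears on the value.

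IL1B, the main secreted agonist of the family, was higher in both of its probe sets. The brighter one had a signal of 509 with let-7i and 149 with the empty vector, 3.42-fold higher (log2 ratio 1.77), at rank 18. The dimmer one had 403 with let-7i and 76.6 with the empty vector. Its empty vector signal was below the floor, so let-7i was at least 4.56-fold higher there (log2 bound 2.19). The signals of the 2 cultures were thus far apart in both readings, and the empty vector signal was near the floor in both (1.69 and 0.870 times it).

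IL1A, the agonist that stays largely within or on the cell, was read by 2 probe sets that gave different directions. Its brighter probe set had 196 with let-7i and 258 with the empty vector, 1.32-fold lower (log2 ratio -0.40), a difference close to the SD of 0.34 for probe sets as dim. Its other probe set had 104 with let-7i and 8.02 with the empty vector, a bound of at least 1.18-fold higher. No direction is given for the gene, and the size of the bound in the second reading is set by the floor.

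Among the other ligands, IL18, which is kept as an inactive precursor until cut by CASP1, had nearly equal signals, 655 with let-7i and 657 with the empty vector (log2 ratio -0.01). IL33, a nuclear alarm cytokine, had 37.9 with let-7i and 2.91 with the empty vector. IL36G, a keratinocyte cytokine, had 16.8 with let-7i and 36.8 with the empty vector. IL33 and IL36G were thus dimmer on each array than the brightest Bacillus control there, and no ratio is given.

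IL1RN, the receptor antagonist, was close to equal in its 1 measurable probe set, with 113 for let-7i and 111 for the empty vector (log2 ratio 0.02). Its other 4 probe sets were below the floor on both arrays, from 1.16 to 47.3 with let-7i and from 0.994 to 66.6 with the empty vector. The agonist IL1B and the antagonist IL1RN therefore had log2 ratios of 1.77 and 0.02 on the same pair of arrays.

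Of the receptors, the co-receptor IL1RAP stood apart from the ligand-binding chain IL1R1. IL1RAP had 738 with let-7i and 285 with the empty vector in its brighter probe set, 2.58-fold higher (log2 ratio 1.37), at rank 38. Its second probe set had 485 with let-7i and 339.9 with the empty vector, 1.42-fold higher (log2 ratio 0.51). Both probe sets are higher with let-7i, but by different amounts. The SD of 0.25 is for 1 probe set, and that of a difference between 2 is larger. The mean ratio of both probe sets (0.96, after centring anew) is under the 2-fold threshold. IL1RAP is known to be made in membrane and soluble forms, and which form a probe set reads is not given in the sources used here.

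IL1R1 had 586 with let-7i and 556 with the empty vector (log2 ratio 0.07), and a second probe set just under the floor on both arrays (71.3 with let-7i and 65.9 with the empty vector). The decoy receptor IL1R2 had 40.5 with let-7i and 6.22 with the empty vector in one probe set. Its other probe set had 10.2 with let-7i and 4.47 with the empty vector. All IL1R2 signals were below the floor and below the brightest Bacillus control, so no ratio is given.

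**Figure D2:**
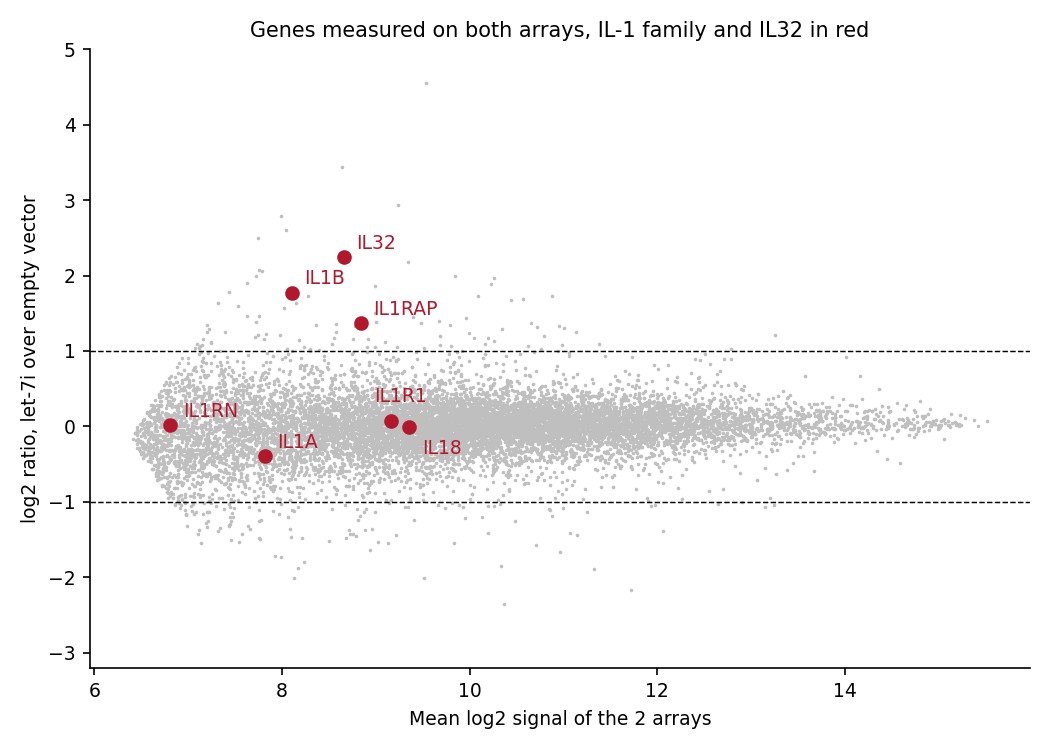
Log2 ratio of let-7i over empty vector (y axis) against the mean log2 signal of both arrays (x axis) for the 11140 genes measured on both arrays (grey), with the 7 measured IL-1 family and IL32 genes in red and 2-fold marked by dashed lines. IL32 (2.24), IL1B (1.77) and IL1RAP (1.37) lie above the upper line, and IL1R1, IL1RN, IL18 and IL1A lie between the lines.

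The promoters of the 3 genes that were at least 2-fold higher are shown with that of IL1A, since IL1A lies next to IL1B. The sequences are RefSeq windows of build GRCh38.p14, each running from 250 bases before to 50 bases after a gene start. They were available for 9 of the 10 genes, in 18 windows. Capitals mark matches on either strand to the AP-1 motif, searched as TGANTCA, or to the kappaB consensus, the site bound by NF-kB. The kappaB consensus was searched as GGGR, any 2 bases, then YYCC, where R is A or G and Y is C or T. Where a gene has several starts, 1 window is shown.
IL32, chr16:3065153-3065452, plus strand: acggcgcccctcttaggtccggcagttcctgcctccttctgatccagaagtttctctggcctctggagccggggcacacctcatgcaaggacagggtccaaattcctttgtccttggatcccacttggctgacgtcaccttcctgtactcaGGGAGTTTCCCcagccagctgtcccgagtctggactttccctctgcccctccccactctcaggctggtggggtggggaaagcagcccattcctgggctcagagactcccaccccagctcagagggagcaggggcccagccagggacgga
IL1B, chr2:112836730-112837029, minus strand: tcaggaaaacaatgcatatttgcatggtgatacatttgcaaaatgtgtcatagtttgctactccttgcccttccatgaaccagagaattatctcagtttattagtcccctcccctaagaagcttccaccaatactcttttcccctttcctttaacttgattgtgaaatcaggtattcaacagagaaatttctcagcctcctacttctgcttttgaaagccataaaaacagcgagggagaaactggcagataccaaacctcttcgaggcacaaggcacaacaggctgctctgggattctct
IL1RAP, chr3:190513835-190514134, plus strand: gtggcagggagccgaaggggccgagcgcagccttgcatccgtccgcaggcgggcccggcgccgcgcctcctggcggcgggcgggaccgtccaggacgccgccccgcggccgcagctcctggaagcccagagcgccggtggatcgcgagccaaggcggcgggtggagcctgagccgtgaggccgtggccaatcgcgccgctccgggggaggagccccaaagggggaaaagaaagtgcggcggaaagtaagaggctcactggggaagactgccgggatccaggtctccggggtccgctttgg
IL1A, chr2:112784351-112784650, minus strand: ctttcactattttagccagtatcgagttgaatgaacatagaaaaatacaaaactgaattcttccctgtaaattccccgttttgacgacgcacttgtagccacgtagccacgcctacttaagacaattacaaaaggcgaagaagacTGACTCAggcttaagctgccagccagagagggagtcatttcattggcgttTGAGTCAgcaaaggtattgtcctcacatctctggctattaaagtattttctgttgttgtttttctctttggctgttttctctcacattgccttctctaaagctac

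The IL32 window held 2 overlapping matches to the kappaB consensus, from 99 to 89 bases before the start, and the window of its other start, not shown, held no match to either motif. The IL1A window held 2 AP-1 matches, from 105 to 99 and from 55 to 49 bases before the start, and the IL1B and IL1RAP windows held neither motif in these letters. Over all 18 windows of the set, 2 held a kappaB match (in IL32 and IL1R2) and 3 an AP-1 match (in IL1A, whose 2 windows overlap, and IL1RN). Of all 35116 RefSeq windows, 11.3% held a kappaB match and 7.71% an AP-1 match. A match is a string of letters and does not show that a factor was bound.

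The position of the genes was compared with their ratios. In RefSeq (GRCh38.p14), 9 ligand genes of the family follow each other on chromosome 2 with no other protein-coding gene between them, in the order IL1A, IL1B, IL37, IL36G, IL36A, IL36B, IL36RN, IL1F10, IL1RN. In this run, IL1B was the only gene at least 2-fold apart by its brightest probe set. Its neighbour IL1A had a log2 ratio of -0.40 in its brighter probe set and an upward bound in the other, and IL37, an anti-inflammatory member, had 109.9 with let-7i and 35.0 with the empty vector, a bound of at least 1.25-fold. IL1RN at the far end was at 0.02, and the 5 genes between IL37 and IL1RN were below the floor on both arrays.

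The receptor genes form a second run on chromosome 2, in the order IL1R2, IL1R1, IL1RL2, IL1RL1, IL18R1, IL18RAP. Here IL1RL1, the receptor of IL33 (also called ST2), was the gene at least 2-fold higher. It had 3893 with let-7i and 1816 with the empty vector in its brightest probe set (2.14-fold, log2 ratio 1.10). Its other 2 measured probe sets gave 1771 and 1225 with let-7i, against 1023 and 764 with the empty vector (log2 ratios 0.79 and 0.68). All 3 are higher with let-7i and 1 of them reaches 2-fold. The mean over probe sets (0.88, centred anew) and the value without probe sets shared between transcripts (0.80) are under the threshold. On either side of it, IL1R1 was at 0.07 and IL18R1, the ligand-binding chain for IL18, at 0.10, and IL1R2, IL1RL2 and IL18RAP were below the floor on both arrays.

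The rest of the pathway was described by 5 lists. They were put together with earlier results of these arrays known, and their counts are read against the 1.06% higher and 1.38% lower given above. The first holds the other ligands, receptors and binding proteins of the family. Of its 13 genes 5 were above the floor, all 5 were higher with let-7i, 1 (IL1RL1) by 2-fold, and the median log2 ratio was 0.32. Of the 5, 3 were measured on both arrays, with the same median. IL37 and IL18BP were above the floor only with let-7i, so they could not count as lower. SIGIRR, which restrains IL-1 signalling, had 1269 with let-7i and 1011 with the empty vector (log2 ratio 0.32), and its other probe set was at 0.12. IL18BP, a soluble trap for IL18, had 114 with let-7i and 58.6 with the empty vector, a bound of at least 1.29-fold.

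The signalling chain below the receptor showed no gene past 2-fold by its brightest probe set. Of 22 genes with a probe set of a single symbol, 20 passed the floor, 9 of them higher with let-7i and 11 lower, and the median log2 ratio was -0.01. The adaptor MYD88 had 1128 with let-7i and 1198 with the empty vector (log2 ratio -0.09). The kinase IRAK1 had 12667 with let-7i and 10151 with the empty vector (log2 ratio 0.32), and its other probe set was at 0.03. The ubiquitin ligase TRAF6 had 322.3 with let-7i and 321.5 with the empty vector. NFKBIA, the inhibitor of NF-kB that NF-kB itself induces, was lower, with 1563 in let-7i cells and 2133 in empty vector cells (log2 ratio -0.45). TOLLIP, an adaptor that restrains the pathway, was nearly equal in its brightest probe set (log2 ratio -0.02), but its other 2 above the floor gave 0.28 and -1.03, the last with 93.3 for let-7i and 189.8 for the empty vector. The 5 probe sets of MAPK8, the kinase JNK1, ran from -0.87 to 0.40, with 0.40 in the brightest. IRAK4 was not analysed here.

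Genes that mature or release the cytokines were also mostly within 2-fold. Of 26 genes listed, 25 had a probe set of a single symbol. Of the 25, 16 passed the floor, 10 of them higher with let-7i and 6 lower, with a median of 0.08. CASP5, AIM2 and CARD16 were above the floor only with let-7i, so they could not count as lower. The 13 genes measured on both arrays had a median of 0.04. CASP1, the protease that activates IL1B and IL18, was higher in all 5 of its probe sets, with log2 ratios from 0.28 to 0.78 and signals of 1804 with let-7i and 1203 with the empty vector in the brightest. The pore protein GSDMD had 887 with let-7i and 605 with the empty vector (log2 ratio 0.55). CARD16, a CASP1-like protein whose sequence is close to that of CASP1, had 199 with let-7i and 70.1 with the empty vector, a bound of at least 2.25-fold, and probes may not tell the pair apart. It was the gene of this list past 2-fold, and that count of 1 was 0 with the 65th percentile floor and when only genes measured on both arrays were kept. The adaptor PYCARD, which links sensors to CASP1, had 6.90 with let-7i and 11.6 with the empty vector, both under the floor. On the other side, the sensor NLRP1 was 1.58-fold lower (325 with let-7i and 514 with the empty vector). The protease CTSS was lower in both probe sets above the floor, with a log2 ratio of -0.67 in the brighter and a bound of -1.22 in the other (27.8 with let-7i and 184.5 with the empty vector).

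Genes known to be induced by IL-1 were the list with the highest median of the 5, at 0.69. Of 32 genes listed, 27 had a probe set of a single symbol. Of the 27, 15 passed the floor, 11 of them higher with let-7i and 4 lower. CXCL1, CXCL8 and PTGS2 were above the floor only with let-7i, so they could not count as lower. By the brightest probe set, at least 2-fold higher were 4 of the 15, and at least 2-fold lower 0. Among the 12 genes measured on both arrays, 3 were at least 2-fold higher and the median was 0.62. MMP1, a collagenase, had 3610 with let-7i and 153 with the empty vector (log2 ratio 4.56). The chemokine CXCL2, whose sequence is close to those of CXCL1 and CXCL3, had 453 with let-7i and 108 with the empty vector (log2 ratio 2.07). Its other probe sets were below the floor on both arrays (29.3 and 25.7 with let-7i, 22.7 and 2.55 with the empty vector). When the floor was the 65th percentile, the CXCL2 log2 ratio was a bound of 0.97, under the 2-fold threshold. TNFAIP3, a feedback inhibitor of NF-kB, was higher in both probe sets (log2 ratios 1.38 and 1.15), with 829 and 622 in let-7i cells against 318 and 281 in empty vector cells. CXCL8, a chemokine for neutrophils, had 228 with let-7i and 48.7 with the empty vector. This is at least 2.59-fold higher, a bound that gives no direction if the floor is the 65th percentile (-0.02). A dimmer CXCL8 probe set had 100.1 with let-7i and 21.6 with the empty vector, a bound of 1.13-fold.

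The list did not move as one. IL6 had 388 with let-7i and 194 with the empty vector (1.99-fold), while PTGES, a prostaglandin synthase, was lower in both probe sets. The brighter one had 4469 with let-7i and 8067 with the empty vector, 1.81-fold lower, and the other had 1820 with let-7i and 3838 with the empty vector, 2.11-fold lower. LIF (log2 ratio -0.01), C3 (-0.05) and SOD2 (0.05), each read by 1 probe set, were nearly equal. Without probe sets shared between transcripts, and when the floor was the 65th percentile, 2 genes of the list were at least 2-fold higher. Several of these genes were known to be higher on these arrays when the list was drawn up, so its median is not independent evidence.

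**Figure D3:**
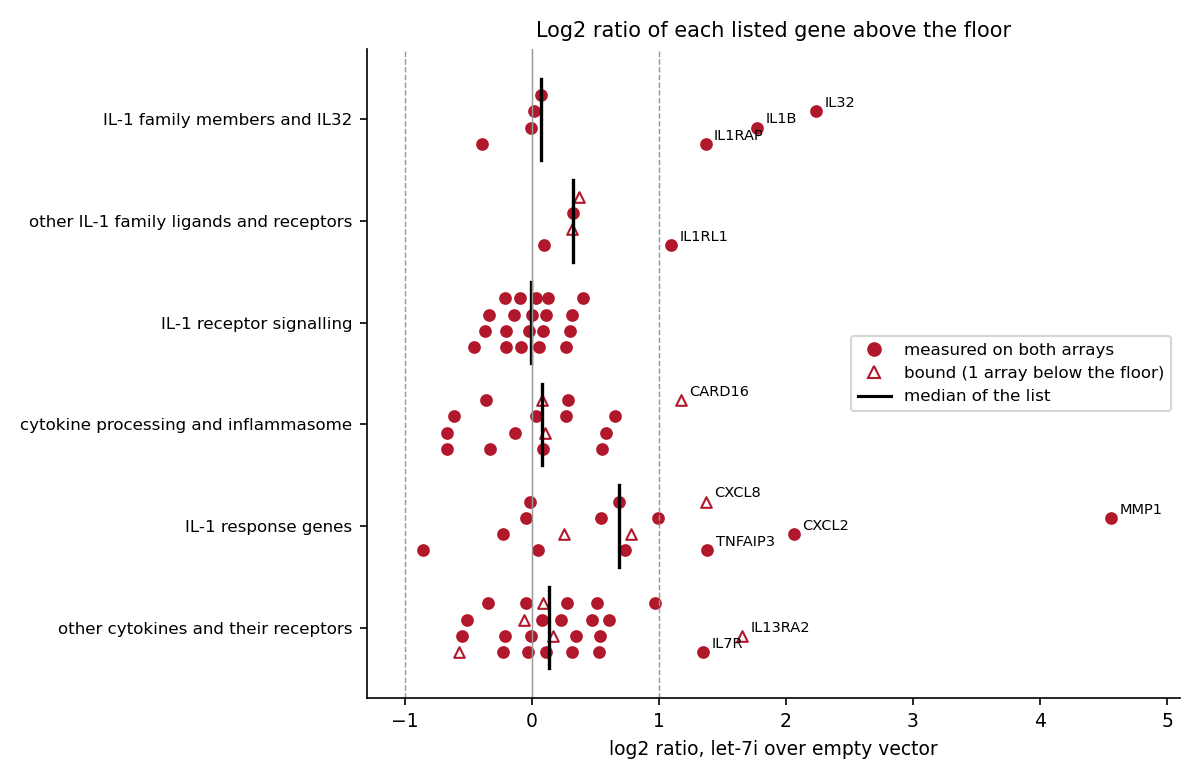
Log2 ratio of let-7i over empty vector (x axis) of each gene above the floor in the IL-1 family set and the 5 pathway lists (rows), with genes measured on both arrays as filled circles, bounds as open triangles, list medians as black bars and names for genes at least 2-fold apart. The signalling chain is centred at -0.01 with no gene outside the dashed 2-fold lines by its brightest probe set, and the IL-1 response genes have a median of 0.69.

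Cytokines and receptors outside the IL-1 system were set beside the family. Of 40 genes 26 passed the floor, 16 of them higher with let-7i and 9 lower, while IL24 gave no direction, with a median of 0.14. The 21 measured on both arrays had a median of 0.23, and 1 of them was at least 2-fold higher. The rest are bounds, which cannot point away from the array that passed the floor. Past 2-fold were IL7R, the receptor of interleukin-7, and IL13RA2, a decoy receptor of interleukin-13. IL7R was higher in both probe sets, with 1410 and 1257 in let-7i cells against 552 and 360.1 in empty vector cells (log2 ratios 1.35 and 1.80). IL13RA2 had 278 with let-7i and 36.9 with the empty vector, at least 3.15-fold higher, a bound that shrank to a log2 ratio of 0.27 when the floor was the 65th percentile.

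Markers of cell types were read because IL1B and IL32 are also made by leukocytes. Of 14 leukocyte markers listed, 12 had a probe set of a single symbol. Of the 12, 3 were above the floor on at least 1 array (CSF1R, ITGAM and CD3E), 1 higher and 2 lower with let-7i. The summed signal of the 12 was 564 with let-7i and 622 with the empty vector. The pan-leukocyte gene PTPRC (58.3 with let-7i and 55.8 with the empty vector) and the monocyte gene CD14 (7.44 with let-7i and 2.80 with the empty vector) were below the floor on both arrays. By brightest probe set, 3 of 9 fibroblast markers were above the floor. All 3 were higher with let-7i (DCN 0.98, FAP 0.77 and COL1A1 0.26, log2 ratios), with a median of 0.77. DCN had 2 of 7 probe sets above the floor, COL1A1 2 of 5 and THY1 1 of 3, at a log2 ratio of 0.06. LUM, COL1A2, COL3A1, PDGFRA and PDGFRB had no probe set above it. The median of those 3 genes was above that of the IL-1 response genes (0.69), but rests on few readings. The summed signal of the 9 markers was 1338 with let-7i and 929 with the empty vector. Of 6 endothelial markers 1 was above the floor (summed signal 489 with let-7i and 481 with the empty vector). No marker was listed at 0, and the part of the fibroblast markers in the differences was not tested. The summed signals include markers below the floor, so they do not measure how many such cells a culture held.

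Epithelial markers were read for the labelled cell type. Of 11 squamous epithelial markers listed, KRT6A, KRT17 and TP63 had no probe set of a single symbol and were not read. Of the other 8, 4 were above the floor, 1 higher and 3 lower with let-7i, with a median log2 ratio of -0.46. EPCAM (6690.2 with let-7i and 10912 with the empty vector) and CDH1 (5089.5 with let-7i and 6785 with the empty vector) were well above the floor. So was SFN (16192 with let-7i and 15939 with the empty vector), and DSC3, a desmosomal cadherin, had 357 with let-7i and 501 with the empty vector. The basal keratins KRT5 (7.88 with let-7i and 11.9 with the empty vector) and KRT14 (9.85 with let-7i and 29.3 with the empty vector), which mark squamous epithelium, were below the floor on both arrays. So were KRT16 (35.2 with let-7i and 25.5 with the empty vector) and DSG3 (29.1 with let-7i and 58.9 with the empty vector). In RNA from whole cultures, a change in the share of cells that make a transcript and a change in its amount per cell cannot be told apart.

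Processing alternatives were run for every measured gene. IL1B stayed at least 2-fold higher in all 8 alternatives that keep this threshold, with log2 ratios from 1.14 to 2.00, the lowest being a bound set by the 65th percentile floor. IL32 had 1.93 to 2.29 in the 7 alternatives that keep its only probe set. Its lowest value was likewise a bound set by the 65th percentile floor. IL1RAP had 0.96 to 1.40 and was under 2-fold in 1 of 8, the mean of its probe sets. Keeping only genes above both floors, 1 of these alternatives, could not change these values, because all 3 genes were above both floors.

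**Figure D4:**
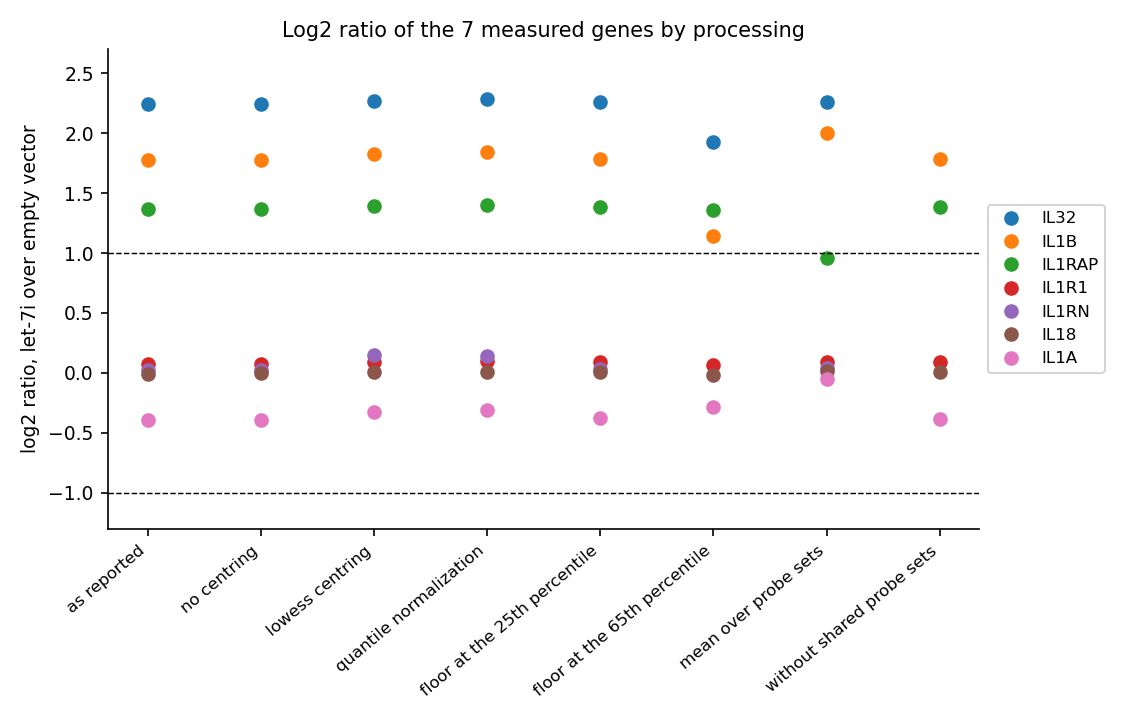
Log2 ratio of let-7i over empty vector (y axis) of the 7 measured genes under the processing as reported and 7 alternatives (x axis), with 2-fold marked by dashed lines. IL32 and IL1B lie above the upper line wherever a value exists, and IL1RAP falls to 0.96 with the mean over probe sets. The other 4 genes are drawn between the lines wherever a value exists. IL1RN has no value with the 65th percentile floor or without shared probe sets. IL1A, IL1B and IL32 are bounds with the 65th percentile floor.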

How the data were processed

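Total RNA of 1 let-7i and 1 empty vector culture was labelled as biotinylated cRNA, per the labels' protocols. Per the submitters' processing notes, the authors computed the deposited signal intensities with MAS5 (version not given in the sources used here). They are linear, and both arrays have a mean of 500.1 after 2% is trimmed at each end. The number of arrays limits the precision.

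Probe sets were named through the platform annotation. Of 54675, 41097 carried 1 symbol and were used, 1801 carried several and 11777 none. RefSeq (GRCh38.p14) held 41043 of the IDs used and changed 0 symbols. Each gene was read by the brightest of its probe sets (mean of both log2 signals). Signals were floored at the 50th percentile of each array, and log2 ratios were centred on the median of the genes measured on both arrays (0.0036). With 1 array per group, genes were called by size at 2-fold, with no test.

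The members and lists were chosen with earlier results of these data known. Genes named are the members, list genes past 2-fold and a fixed panel of 11, and others named (among them IL18BP, IL37, IL6, PTGES, NLRP1, TOLLIP, MAPK8, CTSS, LIF, C3 and SOD2) were chosen after their values were seen. Alternatives were thresholds of 3-fold and 1.5-fold, a 25th or 65th percentile floor, no centring, quantile normalization, lowess (fraction 0.3, 3 iterations), averaging a gene's probe sets, and dropping _x_at and _s_at probe sets. The calculation was tested on simulated data. Tables were handled in pandas 2.3.3 and NumPy 2.4.6 under Python 3.11.15, lowess came from statsmodels 0.14.6, and Matplotlib 3.10.9 drew the figures.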

Additional observations from a re-analysis of the deposited data

How the results depend on the processing

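The count of 3 genes of the set at least 2-fold higher was 2 with the mean over probe sets (IL1RAP dropped out), without shared probe sets (IL32 has no other) and at 3-fold, and 3 in the other alternatives. No gene was 2-fold lower in any of them. The probe sets past 2-fold numbered from 3 to 5, against 4. The median log2 ratio of the genes (0.07) was 0.44 with a floor at the 25th percentile, which brings in bounds for IL1R2 (0.88), IL33 (0.78) and IL36G (-0.94), and 0.60 when the floor was the 65th percentile, where fewer genes have a value. The IL-1 response list had medians from 0.51 to 0.69, and its count past 2-fold ran from 2 to 9, the highest with a floor at the 25th percentile. Keeping only genes above both floors, an alternative chosen after the data were seen, removed none of the 7 measured genes. The count of 3 genes higher could therefore not change under it. No paired analysis was possible because each group has 1 array. Signal near the floor limits IL1A, IL1RN and the empty vector readings of IL1B and IL32.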
